A study of Rattus norvegicus with 42 samples.

Results

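The transcriptome of the rat retina after an injection of nanoceria into the vitreous of the eye, without damaging light, was compared with that of untreated retina. The comparison holds 9 libraries, 4 of nanoceria and 5 of control, of the 31 libraries with counts and the 42 samples labelled in the study. Nanoceria are nanoparticles of cerium oxide, which can scavenge reactive oxygen species. Adult rats kept on a daily cycle of light and dark received 1 mM nanoceria in the vitreous (nanoceria), the same injection with vehicle only (vehicle, 5 libraries), or nothing (control). Because the control rats were not injected, the contrast between nanoceria and control holds the injection as well as the particles. Parallel groups stood under light of 15000 lux during 24 h, without injection (light damage, 7 libraries) after nanoceria (nanoceria plus light, 5 libraries) or after vehicle (vehicle plus light, 5 libraries). The first pair served here to ask whether the nanoceria response was also seen with light, and the vehicle plus light libraries entered only the joint fit of all 31 libraries. PolyA RNA of the retina was sequenced as paired reads of 150 bp. The labels call the samples biological replicates but do not state whether each is a separate animal or eye, and they give neither strain, sex, injected volume nor the time from injection to tissue collection. Libraries are named below by their group and the number in their label (control 1, 2, 4, 5 and 6; nanoceria 1, 2, 3 and 5; vehicle 1, 2, 3, 4 and 7).

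Microglia are the resident macrophages of the retina. They sense injury through surface receptors such as TREM2, the fractalkine receptor and the receptors for antibody Fc, they release chemokines that draw other leukocytes, and they make C1q, the protein that starts the classical complement cascade. Mueller glia and astrocytes answer the same injuries by raising intermediate filaments, secreted acute-phase proteins and growth factors that protect photoreceptors. The integrated stress response is a separate programme in which the transcription factor ATF4 raises genes of amino acid supply, and sterol synthesis is run as 1 block of genes under the SREBP transcription factors.

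Total counts lay between 74306775 and 120222710 in the control libraries, between 83372000 and 113801610 in the nanoceria libraries and between 73369026 and 121336562 in the vehicle libraries, so depth did not separate these groups. Levels are given as CPM, library-scaled counts computed with the TMM method of edgeR. Markers of rods summed to 24940 to 47810 CPM in control and 30810 to 48130 CPM in nanoceria libraries, and every marker chosen for rods, cones, bipolar cells, ganglion cells and Mueller glia passed the filter on low counts. Lens transcripts made up 0.086% to 0.976% of the counts in control, 0.0999% to 1.56% in nanoceria and 0.581% to 3.71% in vehicle libraries. Transcripts of the Y chromosome were abundant in 4 of 5 control, 2 of 4 nanoceria and 1 of 5 vehicle libraries, so sex is unevenly spread over the groups, and a fit with a term for it is used below as a check.

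Nanoceria and control differed in 445 of 18094 genes tested (2.46%), called at an adjusted p under 0.05 in the quasi-likelihood test of edgeR. Of these, 313 were higher after nanoceria (1.73% of all genes tested) and 132 were lower (0.73%). The changes were not symmetrical in size. The median log2 fold change was 1.13 among the higher genes and -0.34 among the lower genes, and 211 of the higher but 14 of the lower genes differed at least 2-fold. All 4 nanoceria libraries lay above all 5 control libraries for 275 of the 313 higher genes, where 4.24% of all genes tested did so, and all 4 lay below for 107 of the 132 lower genes, against 3.02%. The called genes were chosen with these same libraries, so nothing is read from these counts. The split of the calls depended on the scaling, since 70.3% of calls were higher with TMM, 80.3% with the size factors of DESeq2 (358 higher, 88 lower) and 90.9% with library size alone (341 higher, 34 lower). It also depended on the fit. With these 2 groups fitted alone edgeR called 369 genes, 337 higher and 32 lower, and 237 of them were among the 445. DESeq2 called 727 genes, 73.5% of them higher, and limma-voom 1276, 54.3% of them higher. A term for sex left 369 calls, 262 of them higher and 107 lower, and 362 of the 445 were kept.

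The number of calls rested on few libraries. Leaving out a single library gave 205 calls without nanoceria 1, 227 without nanoceria 3, 236 without nanoceria 2, 251 without control 2 and 293 without control 4, and between 306 and 432 without any other control or nanoceria library. In all 9 of these fits 103 of the 313 higher and 23 of the 132 lower genes were called. Many genes given below are outside these 126. Libraries without which calls were lost are named beside the gene or the count of its list, though not always all of them.

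**Figure D1:**
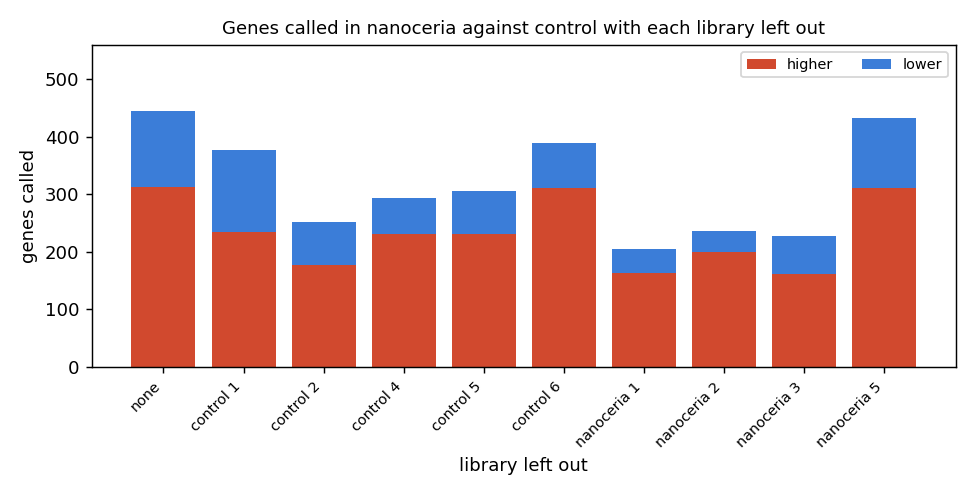
Number of genes called in nanoceria against control (y axis, edgeR adjusted p under 0.05) with no library left out and with each library left out in turn (x axis), split into genes higher (red) and lower (blue) after nanoceria. The count was 445 with all libraries, lowest without nanoceria 1 at 205 and highest of the reduced fits without nanoceria 5 at 432.

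Among called genes that have a named symbol and an average log2 CPM of 1 or more, Chi3l1, from the reactive glia list, rose most. It encodes a secreted chitinase-like protein of reactive astrocytes and macrophages, and its cell source here was not tested. Chi3l1 measured 31.9, 17.8, 33.8, 32.1 and 33.9 CPM in the control libraries and 300, 153, 175 and 183 CPM in the nanoceria libraries. The groups were far apart, and the log2 fold change was 2.76 ± 0.31 (SE, edgeR adjusted p = 1.14e-05). Cp, which encodes the copper-carrying ferroxidase ceruloplasmin, measured 104, 93.1, 120, 77.5 and 91 CPM in control and 376, 197, 254 and 223 CPM after nanoceria. Its log2 fold change was 1.44 ± 0.19 (edgeR adjusted p = 0.000178), with every nanoceria library above every control library and nanoceria 1 the highest, as for Chi3l1. In bulk tissue, more cells of a type and more RNA per cell cannot be told apart, here and for the cell types below.

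Other members of the reactive glia list were raised less. Fgf2, a growth factor that supports photoreceptors under stress, was scarce at 0.953, 1.53, 0.934, 1.01 and 1.48 CPM in control and 3.17, 1.73, 2.2 and 2.56 CPM after nanoceria, a log2 fold change of 1.03 ± 0.18 (edgeR adjusted p = 0.00324, and 0.0526 with the 2 groups fitted alone). Ednrb, the endothelin receptor found on retinal glia, lay between 28.2 and 43.4 CPM in control and between 57.4 and 73.5 CPM after nanoceria, a log2 fold change of 0.84 ± 0.17 (edgeR adjusted p = 0.00767). Neither gene overlapped between the groups. A2m, the broad protease inhibitor alpha-2-macroglobulin, was 1.00 ± 0.21 higher on the log2 scale (edgeR adjusted p = 0.00776), and lost its call without nanoceria 1 (0.80, adjusted p = 0.0559).

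Gfap, the intermediate filament by which gliosis is usually read, did not pass the test. It measured 87.3, 12.3, 48.5, 17.8 and 110 CPM in control and 238, 127, 131 and 265 CPM after nanoceria, and its log2 fold change was 1.79 ± 0.53 (edgeR adjusted p = 0.0722). All nanoceria libraries were above all control libraries, but the control libraries varied among themselves, and without control 6 the gene was called (2.23, adjusted p = 0.0319). Of the 27 other settings of tool, fit, scaling or libraries, 6 called Gfap higher and 21 did not. Its log2 fold change ran from 1.36 to 2.89 over these settings. In the list of 21 reactive glia genes tested, 5 were called higher and 0 lower, where 1.73% of all genes tested were higher. The median log2 fold change was 0.65 against -0.04 over all genes tested. The count was 8 without control 6. EdgeR called 0 of 16 genes of Mueller glia identity, with 0 higher and 2 lower at an unadjusted p under 0.05, where DESeq2 called 0 and limma-voom 1 lower. It called 0 of 8 astrocyte genes, with 1 higher and 0 lower at that threshold, where DESeq2 called 1 and limma-voom 2 higher. In lists this short, 0 calls lies near the 2.46% called over all genes, so nothing is read from these counts of 0.

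**Figure D2:**
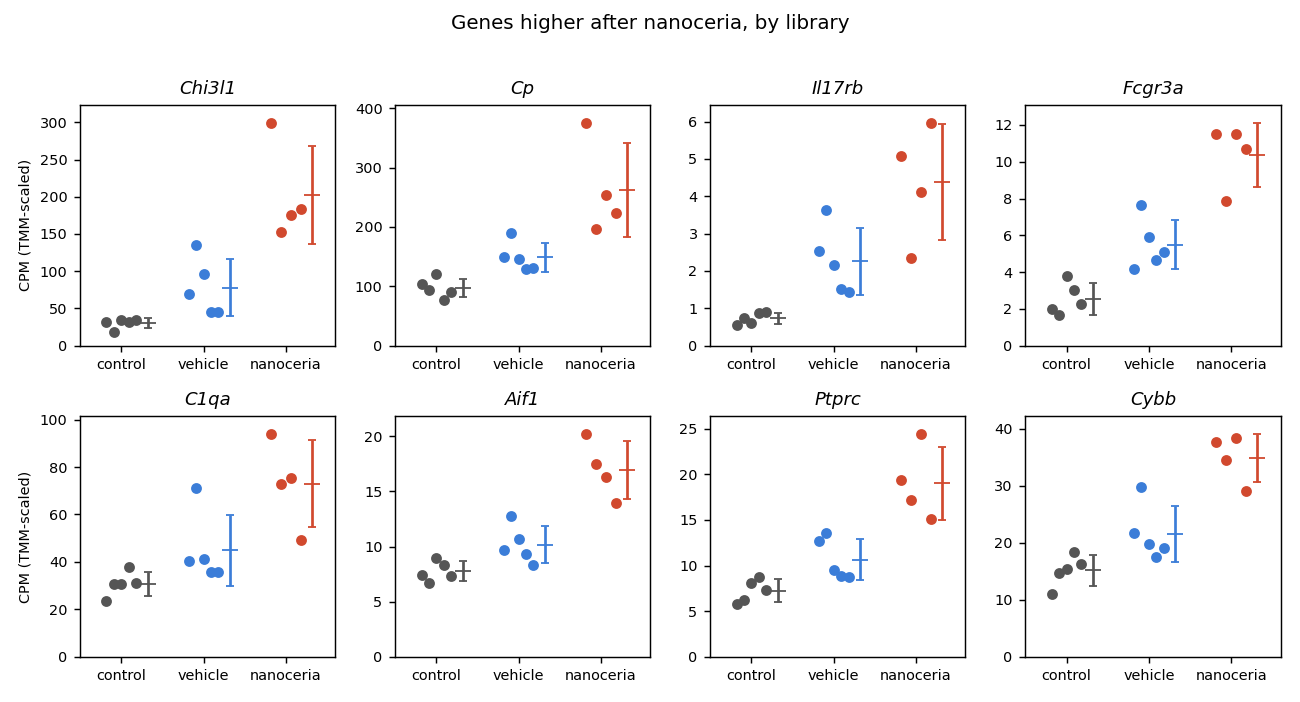
Levels of 8 genes higher after nanoceria, in CPM on linear axes that start at 0, with 1 point per library of control (grey), vehicle (blue) and nanoceria (red) and the mean with its SD beside the points. For every gene shown all 4 nanoceria libraries sit above all 5 control libraries; Chi3l1 spans 17.8 to 33.9 CPM in control and 153 to 300 CPM after nanoceria.

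Genes of microglia and macrophages were higher after nanoceria. Of 15 pan-microglial genes tested, 11 were higher and 0 lower, where 1.73% of all genes tested were higher. The median log2 fold change was 1.00 against -0.04 over all genes. Aif1, which encodes the microglial marker IBA1, measured 7.42, 6.69, 8.97, 8.36 and 7.35 CPM in control and 20.2, 17.5, 16.3 and 13.9 CPM after nanoceria, and rose by 1.13 ± 0.21 on the log2 scale (edgeR adjusted p = 0.00453). Ptprc, the leukocyte phosphatase CD45, measured 5.76, 6.27, 8.08, 8.75 and 7.35 CPM in control and 19.4, 17.1, 24.4 and 15.1 CPM after nanoceria, a rise of 1.39 ± 0.26 (edgeR adjusted p = 0.00459). In both genes the lowest nanoceria library, nanoceria 5, was still above the highest control.

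Cd53, a tetraspanin of leukocytes, rose from between 6.04 and 8.54 CPM in control to between 13 and 19.8 CPM after nanoceria (log2 fold change 1.26 ± 0.24, edgeR adjusted p = 0.00455). Laptm5, a lysosomal membrane protein of blood-forming lineages, rose from between 11.4 and 15.7 CPM to between 22.4 and 37.9 CPM (1.23 ± 0.23, edgeR adjusted p = 0.00462). Fcer1g, the signalling chain shared by Fc receptors, rose by 1.16 ± 0.23 (edgeR adjusted p = 0.00548). These genes, with Aif1, Ptprc and Hcls1, made up the 6 pan-microglial genes called in all 9 fits with a library left out. Spi1, which encodes PU.1, the master transcription factor of the myeloid lineage, rose by 1.00 ± 0.23 (edgeR adjusted p = 0.0173) and lost its call without nanoceria 3 (adjusted p = 0.0682). Csf1r, the receptor that microglia need to survive, rose by 0.74 ± 0.17 (edgeR adjusted p = 0.0155) and lost its call without nanoceria 1 (adjusted p = 0.0613) or nanoceria 2 (adjusted p = 0.053). The count of 11 was 7 without nanoceria 3, 8 without control 2 or nanoceria 1 and 9 without nanoceria 2.

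PU.1 binds DNA at purine-rich sequences with the core GAGGAAG. The promoters of 2 of the most stable microglial genes, which hold that run of letters, and that of C1qa, which does not, are shown from RefSeq on GRCr8, from 250 bases before to 50 bases after the gene start, 5′ to 3′ on the strand of the gene. Capitals mark GAGGAAG or its reverse complement CTTCCTC. The Cd53 window is chr2:197087847-197088146 on the minus strand, the Laptm5 window chr5:148371630-148371929 on the plus strand and the C1qa window chr5:154419884-154420183 on the minus strand.
Cd53: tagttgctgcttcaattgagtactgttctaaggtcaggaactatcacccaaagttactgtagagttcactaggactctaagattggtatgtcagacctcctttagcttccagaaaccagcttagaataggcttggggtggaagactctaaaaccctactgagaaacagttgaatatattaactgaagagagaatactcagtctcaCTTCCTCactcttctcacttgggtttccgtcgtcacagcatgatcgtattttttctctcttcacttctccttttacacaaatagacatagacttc
Laptm5: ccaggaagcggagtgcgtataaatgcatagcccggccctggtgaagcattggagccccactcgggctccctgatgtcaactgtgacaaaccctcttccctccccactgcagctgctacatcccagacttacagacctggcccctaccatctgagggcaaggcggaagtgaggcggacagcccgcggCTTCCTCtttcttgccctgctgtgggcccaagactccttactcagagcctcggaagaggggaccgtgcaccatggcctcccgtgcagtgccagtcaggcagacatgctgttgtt
C1qa: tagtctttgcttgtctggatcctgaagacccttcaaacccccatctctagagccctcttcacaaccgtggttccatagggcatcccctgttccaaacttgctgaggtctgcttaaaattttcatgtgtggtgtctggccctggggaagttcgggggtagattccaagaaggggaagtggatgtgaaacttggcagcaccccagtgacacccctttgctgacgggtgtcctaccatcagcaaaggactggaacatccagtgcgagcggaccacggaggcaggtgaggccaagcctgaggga
The Cd53 and Laptm5 windows each hold 1 match, both as CTTCCTC, and the C1qa window holds 0.

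Over all 33469 promoters of that length in the table, 12.4% hold GAGGAAG on either strand, and over the 12110 genes tested that have a promoter there 14.2% do. Among genes called higher the share was 32.8% (66 of 201 with a promoter), and among genes called lower it was 13.4% (13 of 97). The longer GAGGAAGT, whose matches are all also matches of GAGGAAG, was held by 11.4% of the genes called higher, 3.09% of those called lower and 2.73% of all genes tested with a promoter. The letters are not particular to microglial genes, since 3 of 6 called pan-microglial genes and also 3 of 5 called sterol genes with a promoter held GAGGAAG. In all 7 strings were searched, with the expression results already known, so these shares are a description with no test. CACGTG, the E-box core, was held by 6.97% of genes called higher and 9.02% of all genes tested with a promoter.

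Homeostatic microglial genes, which mark the surveying state, were also higher. Of 16 tested, 8 were higher and 0 lower, where 1.73% of all genes tested were higher, with a median log2 fold change of 0.95. Trem2, the lipid-sensing receptor of microglia, measured 1.44, 1.37, 1.58, 1.67 and 1.5 CPM in control and 5.18, 4.82, 4.24 and 3.05 CPM after nanoceria (log2 fold change 1.52 ± 0.32, edgeR adjusted p = 0.0094). Csf3r, the receptor for granulocyte colony-stimulating factor, measured 0.586 to 0.877 CPM in control and 4.34, 2.75, 3.34 and 1.87 CPM after nanoceria (2.13 ± 0.45, edgeR adjusted p = 0.00968). Both genes kept apart in every library and were called in all 9 fits with a library left out.

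The remaining calls of that list were less secure. Cx3cr1, the fractalkine receptor, rose by 1.04 ± 0.24 (edgeR adjusted p = 0.0151) and lost its call without nanoceria 1 (0.84, adjusted p = 0.0924). P2ry12, the nucleotide receptor that guides microglial processes, rose by 1.00 ± 0.26 (edgeR adjusted p = 0.0307), with an adjusted p of 0.0214 to 0.113 as each library was left out, and kept its call only without control 4 or nanoceria 5. Tmem119, a surface marker of resident microglia, differed by 0.32 ± 0.21 and was not called (edgeR adjusted p = 0.521). Gpr34 (0.96, edgeR adjusted p = 0.0539) and Sall1 (0.87, edgeR adjusted p = 0.108) were not called either. Without control 4 or nanoceria 5 Gpr34 was called (edgeR adjusted p = 0.0406 and 0.0353). The count of 8 fell to 2 without nanoceria 1, to 4 without control 1, control 2, control 5, nanoceria 2 or nanoceria 3, and to 5 without control 6. Of the 5 microglia markers used to check the cell type, 4 were called higher, and their summed level was 84.51 to 108.5 CPM in control, 136.5 to 182.6 CPM in nanoceria and 89.62 to 143 CPM in vehicle libraries.

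Receptors and enzymes of the phagocyte rose with them. Fcgr3a, a low-affinity receptor for IgG, measured 2, 1.65, 3.81, 3 and 2.25 CPM in control and 11.5, 7.84, 11.5 and 10.7 CPM after nanoceria. The groups did not overlap, and the log2 fold change was 2.03 ± 0.34 (edgeR adjusted p = 0.0022). Clec7a, the beta-glucan receptor dectin-1 that is raised on activated microglia, rose by 1.21 ± 0.24 (edgeR adjusted p = 0.0063), from at most 2.79 CPM in control to at least 3.25 CPM after nanoceria. In the list of 20 Fc receptor and activated phagocyte genes 8 were higher and 0 lower, beside 1.73% higher over all genes, with a median of 0.85. That count was 4 without nanoceria 2 and 5 without control 2, control 5, nanoceria 1 or nanoceria 3, and 5 with the sex term. Fc receptor genes belong to a family of similar sequence, and the counting of reads shared between such genes is not given in the sources used here.

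The oxidase that phagocytes use to make superoxide was raised in 2 of its 6 subunit genes tested and lowered in 0. Over all genes tested 1.73% were higher. Cybb, its membrane-bound catalytic subunit, measured 11, 14.7, 15.4, 18.4 and 16.4 CPM in control and 37.7, 34.6, 38.4 and 29.1 CPM after nanoceria (log2 fold change 1.20 ± 0.22, edgeR adjusted p = 0.00365). Ncf1, its cytosolic organiser, measured 5.55, 6.2, 6.93, 8.53 and 6.35 CPM in control and 18.6, 13.4, 15.8 and 10.4 CPM after nanoceria (1.11 ± 0.20, edgeR adjusted p = 0.00356). Both were separated between the groups, and both were called whichever control or nanoceria library was left out. Each lost its call in 1 of all 27 other settings.

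The genes of C1q, which starts the classical complement pathway, were raised. C1qa, the A chain of C1q, measured 23.5, 30.5, 30.6, 37.9 and 31 CPM in control and 94, 72.7, 75.5 and 49.4 CPM after nanoceria, a log2 fold change of 1.25 ± 0.24 (edgeR adjusted p = 0.00459). C1qb measured 14.7, 18.6, 17.5, 22.3 and 21.1 CPM in control and 52.4, 39.9, 44.9 and 29.3 CPM after nanoceria, a change of 1.14 ± 0.22 (edgeR adjusted p = 0.00548). For both chains nanoceria 1 was the highest library and nanoceria 5 the lowest of the treated group, and none overlapped with control. C1qc rose by 1.02 ± 0.23 (edgeR adjusted p = 0.0165) and lost its call without nanoceria 1 (adjusted p = 0.0703) or nanoceria 3 (adjusted p = 0.053). C1s rose by 1.03 (edgeR adjusted p = 0.014) and lost its call without nanoceria 1 (adjusted p = 0.0602). C1r, at 0.68, was not called (edgeR adjusted p = 0.0748), though 6 of 27 other settings called it.

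C3, the component on which all complement pathways meet, measured 14.2, 20.1, 27.8, 22.5 and 34.4 CPM in control and 318, 90.6, 124 and 43.4 CPM after nanoceria. Its log2 fold change was 2.6 ± 0.51 (edgeR adjusted p = 0.00613), but nanoceria 1 was far above the rest, and without that library the change was 1.85 and not called (adjusted p = 0.0585). Regulators of the cascade were also higher. Serping1, the C1 inhibitor that holds the classical pathway back, measured 49 to 66.4 CPM in control and 152, 112, 140 and 89.2 CPM after nanoceria (1.05 ± 0.21, edgeR adjusted p = 0.0063). Cfp, properdin, which stabilises the alternative pathway, rose by 0.82 ± 0.18 (edgeR adjusted p = 0.00968). Of 21 complement genes tested 9 were higher and 0 lower, beside 1.73% higher over all genes, with a median of 0.74. The count was 4 without nanoceria 1 and 6 without nanoceria 3.

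Chemokines did not move as a block. Of 22 tested, 4 were higher and 1 was lower, where 1.73% of all genes tested were higher and 0.73% lower. With the 2 groups fitted alone 7 were higher. The higher count was 3 without control 1, control 2, control 5, nanoceria 1, nanoceria 2 or nanoceria 5. Cxcl11, a ligand of the receptor CXCR3, was scarce in control at 0.138, 0.0915, 0.115, 0.0716 and 0.191 CPM and measured 1.09, 0.507, 0.521 and 0.545 CPM after nanoceria (log2 fold change 2.46 ± 0.37, edgeR adjusted p = 0.000623). Cxcl13, which attracts B lymphocytes, measured 3.25, 3.69, 3.32, 2.97 and 2.19 CPM in control and 10.1, 6.38, 17.9 and 11.7 CPM after nanoceria (1.90 ± 0.40, edgeR adjusted p = 0.00882). In both genes the treated libraries stood apart from control, although the one that stood highest differed, nanoceria 1 for Cxcl11 and nanoceria 3 for Cxcl13.

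Ccl4, which attracts monocytes and T cells, rose from at most 0.31 CPM in control to at least 0.521 CPM after nanoceria (1.81 ± 0.38, edgeR adjusted p = 0.00842). Ccl2, the main monocyte attractant, lay at 0.541 to 1.21 CPM in control and 1.92 to 2.53 CPM after nanoceria and was not called (1.3 ± 0.43, edgeR adjusted p = 0.115, and 0.0297 with the 2 groups fitted alone), although the groups did not overlap. Cxcl14, a chemokine made in resting tissue, went the other way. It measured 78.1, 74.1, 85.2, 57.8 and 58.8 CPM in control and 44.2, 45, 45.2 and 39.4 CPM after nanoceria, a log2 fold change of -0.71 ± 0.13 (edgeR adjusted p = 0.00455) with no overlap.

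Il17rb, the receptor for interleukin 25, shared the smallest adjusted p with Chi3l1. It measured 0.563, 0.74, 0.604, 0.869 and 0.893 CPM in control and 5.09, 2.36, 4.11 and 5.97 CPM after nanoceria, a log2 fold change of 2.57 ± 0.29 (edgeR adjusted p = 1.14e-05), and every treated library was above every control library. Il10ra, the receptor of the anti-inflammatory interleukin 10, rose by 1.11 ± 0.22 (edgeR adjusted p = 0.00548) from at most 1.94 to at least 2.81 CPM. Among 25 cytokines and their receptors 6 were higher and 0 lower, beside 1.73% higher over all genes, with a median of 0.27. The count was 3 without control 1 or nanoceria 3. Il1b, the cytokine of the inflammasome, lay at 0.599 to 0.851 CPM in control and 0.814 to 2.21 CPM after nanoceria, with a log2 fold change of 1.13 ± 0.38 that was not called (edgeR adjusted p = 0.115).

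Genes shared by leukocytes in general were among the largest rises. Itgal, the alpha chain of the integrin LFA-1, measured 2.98, 4.19, 4.93, 5.75 and 4.61 CPM in control and 18, 11, 18.1 and 10.6 CPM after nanoceria (log2 fold change 1.68 ± 0.27, edgeR adjusted p = 0.00167). Spn, the leukocyte sialoglycoprotein CD43, measured 1.77, 1.52, 2.06, 2.42 and 2.08 CPM in control and 5.09, 5.28, 8.96 and 5.18 CPM after nanoceria (1.64 ± 0.31, edgeR adjusted p = 0.00462). Nlrp1a, an inflammasome sensor, measured 1.63 to 2.26 CPM in control and 6.47, 6.16, 8.65 and 6.35 CPM after nanoceria (1.86 ± 0.40, edgeR adjusted p = 0.00968). In Spn and Nlrp1a nanoceria 3 was highest and the other 3 treated libraries lay close together. Myo1g, a myosin of blood-forming cells, rose by 1.69 ± 0.36 (edgeR adjusted p = 0.00885) and Evi2b, a leukocyte membrane protein, by 1.48 ± 0.26 (edgeR adjusted p = 0.00276). Of 15 leukocyte adhesion genes tested 3 were higher and 0 lower, beside 1.73% higher over all genes. The higher count was 5 without control 6 and 1 without nanoceria 3.

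Lymphocyte genes were higher too, but their edgeR calls rested on 1 library. Of 26 genes of T, NK and B lymphocytes 8 were higher and 0 lower, beside 1.73% higher over all genes. All 26 had a positive log2 fold change, with a median of 1.10. At an unadjusted p under 0.05, 22 were higher and 0 lower, and DESeq2 called 16 and limma-voom 13 higher. Cd3e, a chain of the T cell receptor complex, measured 0.253, 0.333, 0.417, 0.546 and 0.262 CPM in control and 1.47, 0.731, 3 and 0.763 CPM after nanoceria (log2 fold change 2.04 ± 0.43, edgeR adjusted p = 0.00885). Jchain, which joins antibody molecules, measured 0.172 to 0.274 CPM in control and 0.698, 1.01, 3.19 and 1.04 CPM after nanoceria (2.66 ± 0.53, edgeR adjusted p = 0.0063). Nanoceria 3 was the highest library for both. Without nanoceria 3 the count of 8 fell to 0, Cd3e to 1.44 (adjusted p = 0.0821) and Jchain to 1.96 (adjusted p = 0.0535), while the count was 5 without control 2 or control 5 and 3 with the 2 groups fitted alone.

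The summed level of the 5 T and NK markers was 1.547 to 2.131 CPM in control and 3.267 to 7.963 CPM in nanoceria libraries, without overlap, and 3 of the 5 were called. The 3 B cell markers summed to 0.4567 to 0.632 CPM in control and 0.7173 to 1.213 CPM after nanoceria, and 4 granulocyte markers to 0.3909 to 1.513 CPM and 0.7355 to 4.218 CPM. EdgeR called 0 of the 3 B cell and 0 of the 3 granulocyte markers that passed the filter. In the list of 13 granulocyte and monocyte genes 2 were higher, Csf3r and Mmp9, and 1 with the sex term, beside 1.73% higher over all genes. S100a8, an abundant neutrophil transcript, was not called (1.52 ± 0.82, edgeR adjusted p = 0.408). Mmp9, a secreted protease, was 1.91 ± 0.49 higher (edgeR adjusted p = 0.0304), with 3.16 CPM in nanoceria 1 and 0.345 to 0.957 CPM in the others, and 0.89 without nanoceria 1 (adjusted p = 0.428). It also lost its call without control 1, control 4, control 5, control 6 or nanoceria 3, at an adjusted p of 0.0706, 0.0599, 0.0706, 0.0577 and 0.0511. The share of these markers in the rise of the myeloid genes above was not tested.

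**Figure D3:**
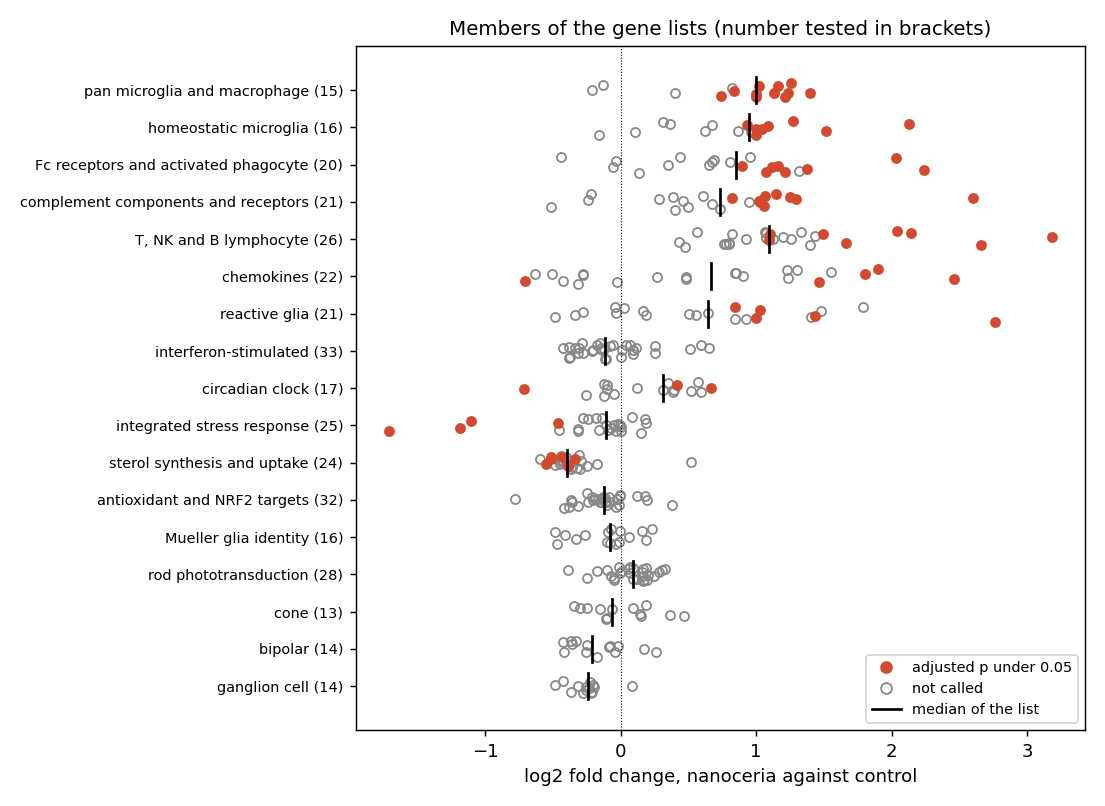
Log2 fold change of nanoceria against control (x axis) for each tested member of 17 gene lists (rows, with the number tested), filled red where edgeR called the gene and open where it did not, and a black bar at the list's median. Medians lie at 1.00 for pan-microglial, 1.10 for lymphocyte and -0.40 for sterol genes, and near 0 for rod, cone and antioxidant genes.

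Interferon-stimulated genes gave no call. EdgeR called 0 of 33 such genes, 2 were higher and 0 lower at an unadjusted p under 0.05, and DESeq2 and limma-voom each called 0; the median log2 fold change was -0.11. At 2.46% over all genes a list of this size would hold few calls or none, and nothing is read from the count of 0, here and in the lists below. MHC genes were called in 2 of 21 cases, Cd74 and RT1-Da, with a median of 0.01. Cd74, the invariant chain of class II molecules, measured 85.8, 123, 162, 166 and 146 CPM in control and 273, 218, 293 and 181 CPM after nanoceria (0.82 ± 0.21, edgeR adjusted p = 0.0339, and 0.072 with the 2 groups fitted alone). The MHC count was 0 without control 1, control 2, nanoceria 1, nanoceria 2 or nanoceria 3, and 1 without control 4, with the sex term or with the 2 groups fitted alone. Bcl2a1 was the 1 gene called of 15 in the NF-kB list (1.11 ± 0.28, edgeR adjusted p = 0.0298), and its adjusted p ranged from 0.042 to 0.0927 as each library was left out. That count was 0 without control 1, control 2, control 4, nanoceria 1, nanoceria 2 or nanoceria 3.

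Antioxidant genes and other targets of the transcription factor NRF2 gave no call. EdgeR called 0 of 32, with 0 higher and 4 lower at an unadjusted p under 0.05, while DESeq2 and limma-voom each called 1 lower, and the median was -0.12. Hmox1, heme oxygenase, lay at 7.16 to 11.6 CPM in control and 10.5 to 14.2 CPM after nanoceria (0.38 ± 0.37, edgeR adjusted p = 0.66). Sod2, the mitochondrial superoxide dismutase, lay at 119 to 124 CPM in control and 106 to 116 CPM after nanoceria (-0.10 ± 0.16, edgeR adjusted p = 0.799). The groups overlapped for Hmox1 and not for Sod2, whose difference was small. The unfolded protein response (0 of 21, with 0 higher and 2 lower at an unadjusted p under 0.05, 0 by DESeq2 and 1 lower by limma-voom) and heat shock genes (0 of 15, with 0 higher and 3 lower, and 0 by both other tools) also gave no call in edgeR.

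The remaining lists of support cells and clearance held 1 or 2 calls each, counts that were not tested against the 2.46% over all genes. Trem2 was the 1 of 17 engulfment genes called, and Ctsz the 1 of 27 lysosomal genes. Cp and Slc11a1 were the 2 of 23 iron, heme and metal genes, Vwf the 1 of 21 endothelial and pericyte genes, Mmp9 and Spp1 the 2 of 23 matrix genes, and Casp4 and Nlrp3 the 2 of 21 apoptosis and inflammasome genes. Spp1, osteopontin, rose by 0.90 ± 0.23 (edgeR adjusted p = 0.031), and its call was lost without control 2, control 5, control 6, nanoceria 1, nanoceria 2 or nanoceria 5, at an adjusted p of at most 0.12. Vwf, the von Willebrand factor of endothelium, measured 36.7, 32, 51.5, 42.4 and 45.9 CPM in control and 74.9, 66.9, 64.8 and 64.1 CPM after nanoceria (0.70 ± 0.18, edgeR adjusted p = 0.0298). Its groups were apart, but the call was lost without control 1, control 2, control 5, nanoceria 1, nanoceria 2 or nanoceria 3. With the 2 groups fitted alone the endothelial and pericyte count was 4, and the engulfment count 2. The count for matrix genes was 0 with the sex term, 0 without control 5, control 6 or nanoceria 1 and 1 with the 2 groups fitted alone or without any other library, and that for apoptosis and inflammasome genes was 0 without control 1, control 2, nanoceria 1, nanoceria 2 or nanoceria 3 and 1 without control 4 or control 5, with the sex term or with the 2 groups fitted alone. The count for lysosomal genes was 0 without control 1, control 2, nanoceria 1 or nanoceria 3, and that for metal genes was 1 without control 2, control 5, nanoceria 1, nanoceria 2 or nanoceria 5. EdgeR called 0 of 9 sterol export genes, with 0 higher and 1 lower at an unadjusted p under 0.05 and 0 by both other tools.

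Of the 132 genes lower after nanoceria, 4 belonged to the list of the integrated stress response and 6 to that of sterol synthesis and uptake. Trib3, a pseudokinase induced by ATF4 that feeds back on it, measured 5.89, 13.7, 9.1, 25.4 and 10.6 CPM in control and 4.5, 3.81, 3.92 and 3.62 CPM after nanoceria. The control libraries were widely spread and the treated ones close together and all lower, and Trib3 fell by 1.71 ± 0.31 on the log2 scale (edgeR adjusted p = 0.00363, and 0.057 with the 2 groups fitted alone). Atf4 itself, the transcription factor of the integrated stress response, measured 655, 622, 627, 750 and 559 CPM in control and 423, 460, 446 and 534 CPM after nanoceria. It fell by 0.46 ± 0.09 (edgeR adjusted p = 0.00455, and 0.0772 with the 2 groups fitted alone), a small change with no overlap.

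Other targets of that response were mixed. Of 25 genes tested 4 were lower and 0 higher, beside 0.73% lower over all genes, with a median of -0.11. The count was 2 without control 5 or nanoceria 2 and 0 in a fit of these 2 groups alone. Atf3 fell by 1.18 ± 0.28 (edgeR adjusted p = 0.0183) and lost its call without control 4 (adjusted p = 0.0543), control 5 (adjusted p = 0.057) or nanoceria 2 (adjusted p = 0.0891). Mthfd2, a mitochondrial folate enzyme, fell by 1.10 ± 0.27 (edgeR adjusted p = 0.0228), and without control 5 its log2 fold change was -0.65 (adjusted p = 0.0888); it also lost its call without nanoceria 2 (adjusted p = 0.0891), nanoceria 3 (adjusted p = 0.0723) or nanoceria 5 (adjusted p = 0.0576). Asns, asparagine synthetase, differed by -0.07 ± 0.13 (edgeR adjusted p = 0.824) and Ddit3, which encodes CHOP, by -0.28 ± 0.11 (edgeR adjusted p = 0.228). Neither was called. Gdf15, a secreted stress signal, was -1.02 ± 0.28 (edgeR adjusted p = 0.0477), and its call was lost without any single library other than control 1.

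Genes of sterol synthesis and uptake were lower by a small amount. Of 24 tested 6 were lower, where 0.73% of all genes tested were, and 0 higher. In the list 1 gene had a positive log2 fold change, and the median was -0.40 against -0.04 over all genes. All 4 nanoceria libraries lay below all 5 control libraries for 11 of the 24, where 3.02% of all genes tested did so. Mvd, the decarboxylase that makes isopentenyl diphosphate, measured 33.4, 33.8, 42.6, 32.9 and 35.8 CPM in control and 24.5, 21.8, 25.5 and 28.3 CPM after nanoceria, and fell by 0.51 ± 0.10 (edgeR adjusted p = 0.00548). Its groups did not overlap, and it was called in all 9 fits with a library left out. Idi1, the isomerase that acts on that product, measured 61.9, 65.4, 79.2, 72.4 and 88 CPM in control and 49.7, 47.9, 54.8 and 53.1 CPM after nanoceria, and fell by 0.51 ± 0.13 (edgeR adjusted p = 0.0228). It did not overlap either, but lost its call without control 4, control 6, nanoceria 1 or nanoceria 2, at an adjusted p of at most 0.0907.

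Mvk, Fdps and Tm7sf2, enzymes of the same pathway, were also called, at -0.34 ± 0.08, -0.43 ± 0.10 and -0.39 ± 0.10 (edgeR adjusted p = 0.0179, 0.0211 and 0.0308). All 3 lost their calls without control 4, nanoceria 1 or nanoceria 2, Fdps and Tm7sf2 also without control 6, and Tm7sf2 also without control 1 or nanoceria 3. Sqle, squalene epoxidase, was at -0.36 ± 0.12 and not called (edgeR adjusted p = 0.112), with 64.6 to 84.7 CPM in control and 47.4 to 63.4 CPM after nanoceria. The count of 6 was 2 without control 4, nanoceria 1 or nanoceria 2, 3 without control 6, 3 with scaling by library size alone and 2 with the 2 groups fitted alone. DESeq2 called 11 and limma-voom 15 of the 24 lower.

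**Figure D4:**
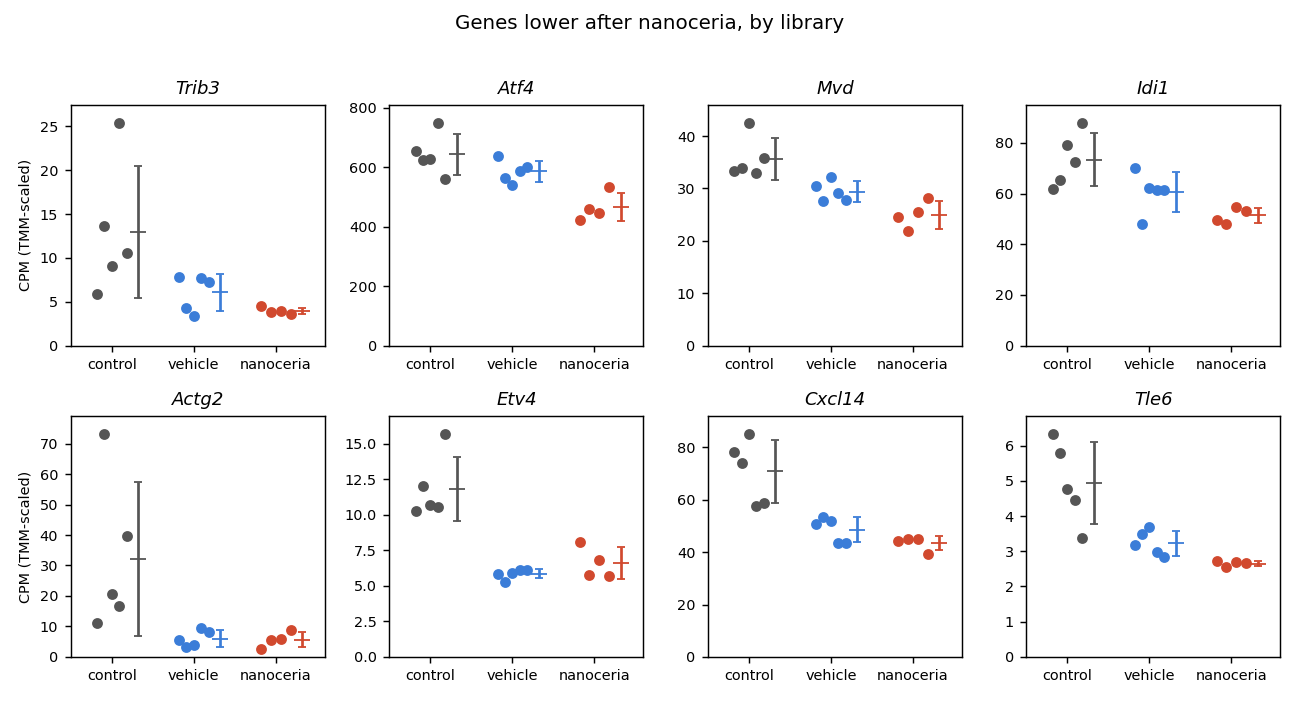
Levels of 8 genes lower after nanoceria, in CPM on linear axes that start at 0, with 1 point per library of control (grey), vehicle (blue) and nanoceria (red) and the mean with its SD beside the points. All 4 nanoceria libraries lie below all 5 control libraries for every gene shown; Mvd spans 32.9 to 42.6 CPM in control and 21.8 to 28.3 CPM after nanoceria.

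A gene of smooth muscle and a target of growth factor signalling were among the falls with the smallest adjusted p. Actg2, the gamma actin of smooth muscle, measured 11, 73.2, 20.5, 16.6 and 39.5 CPM in control and 2.6, 5.6, 5.79 and 8.75 CPM after nanoceria, and fell by 2.5 ± 0.49 (edgeR adjusted p = 0.00548, and 0.0738 with the 2 groups fitted alone). It was the 1 call among 12 genes of ciliary body and iris, whose 3 markers summed to 91.47 to 169.2 CPM in control and 88.3 to 142.5 CPM in nanoceria libraries. Etv4, a transcription factor that acts downstream of FGF receptors, measured 10.3, 12, 10.7, 10.6 and 15.7 CPM in control and 8.07, 5.77, 6.83 and 5.67 CPM after nanoceria, and fell by 0.85 ± 0.15 (edgeR adjusted p = 0.00276). The groups did not overlap for either gene. Of 19 FGF signalling genes, Fgf2 was the 1 called higher and Etv4 the 1 called lower, beside 2.46% of all genes. Tle6, a member of the Groucho family of corepressors, measured 3.37 to 6.34 CPM in control and 2.56 to 2.71 CPM after nanoceria, and fell by 0.90 ± 0.16 (edgeR adjusted p = 0.00343).

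Further falls depended on single libraries. Hr, a corepressor of nuclear receptors, was -0.83 ± 0.18 (edgeR adjusted p = 0.00968) and lost its call without nanoceria 2 (adjusted p = 0.0545). Egr4, an activity-induced transcription factor, was -1.79 ± 0.46 (edgeR adjusted p = 0.0298), from 0.0896 to 0.748 CPM in control to 0.0726 to 0.165 CPM after nanoceria, and lost its call without control 2, 4 or 6 or nanoceria 1, 3 or 5. With Atf3 it made up the 2 calls among 26 immediate early and AP-1 genes, a list with a median of -0.29, and the count was 0 without control 4, 0 with the 2 groups fitted alone and 1 without control 2, control 5, control 6 or any nanoceria library. Over all genes tested 0.73% were lower. Micb, among the 12 largest rises, was 2.32 ± 0.59 (edgeR adjusted p = 0.0276), with its call lost without control 1, control 2, control 4, control 5, nanoceria 2 or nanoceria 5, at an adjusted p of at most 0.0942.

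Clock genes were called in few cases by edgeR and in more by the other tools. Of 17 tested 2 were higher, Nr1d2 and Ciart, and 1 was lower, Npas2, beside 2.46% of all genes called, with a median of 0.31. At an unadjusted p under 0.05, 9 were higher and 1 lower, and DESeq2 called 6 higher and 1 lower and limma-voom 8 higher and 1 lower. Ciart, a repressor within the clock, measured 5.92, 5.19, 4.59, 4.98 and 4.13 CPM in control and 8.96, 9.15, 6.73 and 6.73 CPM after nanoceria (0.67 ± 0.17, edgeR adjusted p = 0.031). Npas2, a partner of BMAL1, measured 15.3 to 19.2 CPM in control and 8.37, 7.95, 13.8 and 13.1 CPM after nanoceria (-0.71 ± 0.20, edgeR adjusted p = 0.0494). Although both were apart between the groups, the 2 higher calls fell to 0 without control 4, control 5, nanoceria 1 or nanoceria 2 and to 1 without control 2, control 6 or nanoceria 3, and the lower call was lost without any 1 library other than nanoceria 3 or nanoceria 5, with the sex term and with the 2 groups fitted alone. The higher count was 3 with the 2 groups fitted alone. The hour of tissue collection is not in the labels.

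EdgeR called 0 genes in the lists of retinal neurons. For the 28 rod genes edgeR called 0, 0 were higher or lower at an unadjusted p under 0.05, and DESeq2 and limma-voom each called 0; the median was 0.09. Gnat1, rod transducin, differed by 0.01 ± 0.42 (edgeR adjusted p = 0.995) and Opn1sw, the short-wave cone opsin, by -0.11 ± 0.40 (edgeR adjusted p = 0.919). With standard errors of this size a change of the order seen for Chi3l1 would stand out, but a change of the size seen for the sterol genes was not detectable. EdgeR also called 0 of 13 cone genes (1 higher and 0 lower at an unadjusted p under 0.05, 0 by both other tools), 0 of 14 bipolar genes (0 and 1, with 1 lower by limma-voom and 0 by DESeq2), 0 of 16 amacrine and horizontal genes (0 and 3, with 1 lower by limma-voom and 0 by DESeq2) and 0 of 14 ganglion cell genes (0 and 2, and 0 by both other tools). Their medians were -0.06, -0.21, -0.14 and -0.24. Penk, a neuropeptide gene of amacrine cells that is in none of these lists, was called lower (-0.79 ± 0.16, edgeR adjusted p = 0.00776, and 0.0523 with the 2 groups fitted alone).

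Of the tissues next to the neural retina, ciliary body and iris had the 1 call of Actg2 given above. EdgeR called 0 of 13 genes of the pigment epithelium (0 higher and 1 lower at an unadjusted p under 0.05), 0 of 20 lens genes (0 and 0) and 0 of 5 blood genes (1 and 0), and DESeq2 and limma-voom also called 0 in these lists. The lens median was 0.69 in this comparison and 2.39 for vehicle against control, and the part of lens tissue in either comparison was not tested. Of 17 cell cycle genes edgeR called 0 (0 higher and 4 lower at an unadjusted p under 0.05, with 1 lower by DESeq2 and 2 lower by limma-voom), at a median of -0.48. Of 22 glycolysis genes 1 was lower, Ldhb (-0.50 ± 0.13, edgeR adjusted p = 0.0429), and this call was lost without any library other than nanoceria 5 and with the sex term. Over all genes tested 0.73% were lower.

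The vehicle group received the injection without the particles. Vehicle against control differed in 4 genes (0.0221%), Il17rb and LOC497796 higher (0.0111%) and Actg2 and Etv4 lower (0.0111%), with 1462 genes at an unadjusted p under 0.05, 52 calls by DESeq2 and 2211 by limma-voom. Nanoceria against vehicle gave 0 calls in edgeR (0%), with 1021 genes at an unadjusted p under 0.05, 40 calls by DESeq2 and 1493 by limma-voom. The counts of vehicle 4 and vehicle 7 were far closer to each other than those of any other pair of libraries without light, as were those of light damage 4 and 7 among libraries with light. With each of these pairs summed to 1 library, limma-voom called 12 genes for vehicle against control and 0 for nanoceria against vehicle, and edgeR 3 and 0. Leaving out single libraries, edgeR called 24 genes for vehicle against control when vehicle 1 was dropped, 7 when control 1 was, 2 when vehicle 7 was and 1 when control 2, control 4 or vehicle 2 was. For nanoceria against vehicle it called 3 without vehicle 2, 2 without nanoceria 5 and 1 without nanoceria 2. In edgeR, then, no gene was shown to differ between nanoceria and vehicle, and neither are the groups shown to be alike.

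The members themselves, set side by side, show both patterns. Nanoceria and vehicle were each measured against the same control libraries. Chi3l1 measured 69.1, 135, 95.9, 44.8 and 44.7 CPM in vehicle libraries, all below the lowest nanoceria library at 153 CPM, with a log2 fold change of 1.38 ± 0.29 for vehicle against control (edgeR adjusted p = 0.0852) and 1.38 ± 0.30 for nanoceria against vehicle (edgeR adjusted p = 0.227). Il17rb measured 2.54, 3.65, 2.17, 1.5 and 1.44 CPM after vehicle, which overlapped the nanoceria range of 2.36 to 5.97 CPM, and differed by 1.62 ± 0.27 from control (edgeR adjusted p = 0.0186) and 0.96 ± 0.27 between nanoceria and vehicle (edgeR adjusted p = 0.387). For Etv4 the vehicle libraries lay at 5.81, 5.3, 5.93, 6.15 and 6.11 CPM, which overlapped the nanoceria libraries, and differed by -1.02 ± 0.14 from control (edgeR adjusted p = 0.000994) and 0.17 ± 0.14 between nanoceria and vehicle (edgeR adjusted p = 1).

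For microglial and complement genes the vehicle medians lay between control and nanoceria. Aif1 measured 9.72, 12.8, 10.7, 9.33 and 8.35 CPM in vehicle libraries, all below the lowest nanoceria value of 13.9 CPM. C1qa measured 40.4, 71.2, 41.4, 35.9 and 35.8 CPM, where vehicle 2 reached into the nanoceria range. Among the pan-microglial genes the median log2 fold change was 0.39 for vehicle against control and 0.56 for nanoceria against vehicle, and among complement genes they were 0.33 and 0.37. C1qb differed by 0.57 in each of the 2 comparisons. Neither comparison called any gene of these lists in edgeR. Of all 313 genes higher in nanoceria than in control, 86 had every nanoceria library above every vehicle library, where 1.94% of all genes tested did, and of the 132 lower genes 36 had every one below, against 1.28%. These genes were chosen with the same nanoceria libraries, so nothing is read from the 2 counts. Atf4 lay at 541 to 636 CPM in vehicle libraries, all above the nanoceria range of 423 to 534 CPM. Its change was -0.13 ± 0.08 for vehicle against control (edgeR adjusted p = 0.697). Between nanoceria and vehicle it was -0.33 ± 0.09 (edgeR adjusted p = 0.327). Trib3, Atf3 and Mthfd2 were also lower with vehicle, without a call, at -1.09, -0.71 and -0.996 against control. For nanoceria against vehicle these genes were at -0.62, -0.47 and -0.11. Among the sterol genes the median was -0.244 for vehicle against control and -0.16 for nanoceria against vehicle.

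With light, the same particles were compared in other libraries, nanoceria plus light against light damage, 2 groups that share no library with nanoceria and control. In this comparison 5 genes were higher (0.0276%) and 6 lower (0.0332%), or 0.0608% of genes tested, and the light damage group was not injected. Of the 313 genes higher without light, 1 was called with light and 188 (60.1%) had a positive fold change there, where 51% of all genes did, with a median of 0.06. Of the 132 lower genes, 0 were called by edgeR and 86 (65.2%) had a negative one, where 49% of all genes did, with a median of -0.03. Over all genes, 1223 were at an unadjusted p under 0.05, and DESeq2 called 89 and limma-voom 37. The 11 calls of edgeR became 3 without replicate 2 of every group, 4 without replicate 3 and 7 without replicate 7, and it was 17 without replicate 4 and 18 without replicate 6.

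The difference between the nanoceria effects with and without light was tested as an interaction, and 74 genes were called (0.409%), 14 with a higher (0.0774%) and 60 with a lower effect with light (0.332%). The count was 39 once each near-identical pair was summed and 47 with the sex term. It was 14 without control 2, 19 without nanoceria 1 or nanoceria 3, 30 without nanoceria 2, 41 without nanoceria 5, 44 without control 1 or control 4 and 46 without control 6. Chi3l1 was among the calls, at 159 to 295 CPM in light damage (median 203) and 177 to 301 CPM in nanoceria plus light (median 269), a log2 fold change of 0.13 ± 0.26 (edgeR adjusted p = 0.969) and a difference between the effects of -2.63 ± 0.40 (edgeR adjusted p = 0.00438). The 2 groups with light overlapped, and both lay at the level of nanoceria alone, near or above its lowest library of 153 CPM. Cxcl11 measured 2.03 to 3.57 CPM in light damage and 0.704 to 2.82 CPM in nanoceria plus light, with a log2 fold change of -0.78 ± 0.29 (edgeR adjusted p = 0.489) and a difference of -3.24 ± 0.47 (edgeR adjusted p = 0.00289).

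Trib3, which fell without light, measured 10.9 to 16.1 CPM in light damage and 7.24 to 16.4 CPM in nanoceria plus light, with a fold change of 0.01 ± 0.26 (edgeR adjusted p = 0.999) and a difference of 1.71 ± 0.40 (edgeR adjusted p = 0.0476). For C1qa, at 24.1 to 48.9 CPM in light damage and 27.2 to 68.9 CPM in nanoceria plus light, the fold change was 0.55 ± 0.21 (edgeR adjusted p = 0.49), and the difference of -0.69 ± 0.31 was not called (edgeR adjusted p = 0.446). Fgf2 was above light damage in every library of nanoceria plus light, at 4.8 to 6.66 CPM against 8.05 to 9.54 CPM, and yet its fold change of 0.65 ± 0.15 did not pass the test (edgeR adjusted p = 0.106). The interaction was called for some of the genes that responded without light and not for others, and 59 of its 74 calls were among the 445. It contains the same difference between nanoceria and control by which those genes were chosen. Genes picked for a large change without light therefore lean towards a smaller effect with light.

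**Figure D5:**
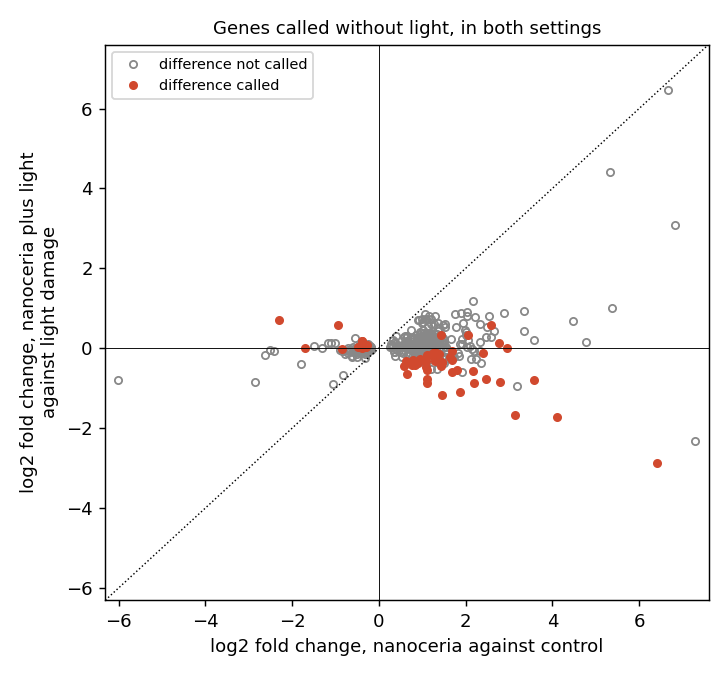
Log2 fold change of nanoceria plus light against light damage (y axis) over that of nanoceria against control (x axis) for the 445 genes called without light, filled red where the difference between the effects was called and open where it was not, with the line of equal change dotted. The genes higher without light have a median of 1.13 on the x axis and 0.06 on the y axis.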

How the data were processed

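Paired reads of 150 bp came from polyA RNA of the rat retina. The values deposited are raw counts, 1 per gene and library. Per the submitters' processing notes, the tools were Trimmomatic 0.39, STAR 2.7.9a, featureCounts, Subread 2.0.1, DESeq2 1.30.1 and R 4.0, with genome build rn6. Neither strand, annotation release nor the handling of multi-mapped reads is given in the sources used here, so values of overlapping genes and of gene families are uncertain, and 4504 names in the file carry a number suffix that marks a repeated name. All 31 columns matched 1 labelled sample each, and the other 11 labelled samples were not analysed here.

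The filter of edgeR (filterByExpr, minimum count 10, minimum total 15) kept 18094 of 32623 genes and left out 14529. Each comparison used the quasi-likelihood test of edgeR 4.0.16 in R 4.3.3 with TMM scaling and all 31 libraries in 1 fit, Benjamini-Hochberg adjustment over the 18094 genes, and a call at an adjusted p under 0.05. Log2 fold changes carry their standard error (SE), and the scripts were tested on simulated data. P-values measure the spread between the labelled replicates. Alternatives were other scalings (the size factors of DESeq2 by edgeR's own method, and library size alone), no filter, DESeq2 1.42.0, limma-voom with sample quality weights (limma 3.58.1), the replicate number as a block, a sex term from Y-linked transcripts, near-identical libraries summed, fits of the 2 groups alone, and libraries left out.

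The members and the 42 gene lists (789 genes, 31 without a match in the file, 10 filtered out, 748 tested) were chosen with earlier results of these data known. The rule for named genes took the 12 highest and 12 lowest log2 fold changes among calls that have a named symbol and an average log2 CPM of 1 or more, the 2 members of each list with the smallest adjusted p, and Gfap, C3, C1qa, C1qb, C1qc, Aif1, Cp, Hmox1, Sod2, Gnat1, Opn1sw, Atf4 and Fgf2. Some items are not reported here. Other genes given with values, among them Ednrb, A2m, Ptprc, Laptm5, Spi1, Csf1r, Cx3cr1, P2ry12, Tmem119, Clec7a, Serping1, Cfp, Ccl2, Ccl4, Il1b, Cd3e, S100a8, Asns, Ddit3, Mvk, Idi1, Fdps, Tm7sf2, Sqle, Npas2 and all genes of the closing section, were chosen after their values were seen, and so were the motif strings, the limit for near-identical libraries and the pairs of settings that sum them.

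Vehicle 4 and vehicle 7 had a chi-square of 4.4 per gene, and light damage 4 and light damage 7 of 10.5. The next closest pairs by log2 difference had 87.2 to 89.1, and chi-square was not computed for the remaining pairs. The vehicle pair and the light damage pair differed by more than sampling noise. They were kept as separate replicates, but that does not show separate animals. The labels do not say whether each pair came from 1 animal, in which case vehicle would hold 4 and light damage 6 independent samples.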

Additional observations from a re-analysis of the deposited data

Results flagged for a closer look

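In groups of 4 or 5 libraries, 13 of 204 gene and group combinations had a highest or lowest library unusually far from the others by Dixon's criterion, where chance gives about 1 in 20. The criterion was applied to log2 levels, and the number is the share of the group's whole range taken by the gap.

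In the nanoceria group, nanoceria 1 was highest for Cxcl11 (0.907) and Gpr179 (0.869), nanoceria 3 was highest for Nlrp1a (0.853) and Spn (0.933), nanoceria 2 was highest for Cngb3 (0.894), and nanoceria 5 was lowest for Cxcl14 (0.838). In the control group, control 1 was lowest for Gdf15 (0.716), Hr (0.747), Ctss (0.789) and Itga4 (0.731). Control 2 was lowest for Chi3l1 (0.907), control 5 was highest for Chordc1 (0.744) and control 6 was highest for Sod2 (0.859).

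For 13 named genes the effect of nanoceria differed with light by the interaction test of edgeR. These genes were chosen by nanoceria against control, which is part of this test, so a smaller effect with light is favoured by the choice. The log2 effect was lower with light for Cxcl11 (difference -3.24, edgeR adjusted p = 0.00289), Chi3l1 (-2.63, 0.00438), Nlrp1a (-2.96, 0.0143) and Il17rb (-2.0, 0.0161). It was also lower for Itgal (-1.76, edgeR adjusted p = 0.0266), Myo1g (-2.28, 0.0266) and Spn (-1.85, 0.0439). At an edgeR adjusted p of 0.0476 it was lower for Cd53 (-1.38), Il10ra (-1.28), Bcl2a1 (-1.65) and Cp (-1.10), and higher for Trib3 (1.71) and Etv4 (0.83), both of which fell without light.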

How the results depend on the processing

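Counts of calls moved with the tool, the design of the fit and the libraries. For nanoceria against control, 445 calls became 727 with DESeq2, 1276 with limma-voom, 1192 with limma-voom and near-identical libraries summed, and 184 with the replicate block. For vehicle against control, 4 became 52, 2211 and 12, with 27 by DESeq2 and pairs summed, 1 with the sex term and 0 in a fit of the 2 groups alone. For nanoceria against vehicle, 0 became 40 by DESeq2, 1493 by limma-voom and 5 by DESeq2 with pairs summed. For nanoceria plus light against light damage, 11 became 89 by DESeq2, 37 by limma-voom, 60 by DESeq2 with pairs summed, and 7 with pairs summed in edgeR or limma-voom. For the interaction, 74 became 275 by DESeq2, 16 with the replicate block, 47 with the sex term, 39 with pairs summed, 42 by limma-voom with pairs summed and 220 by DESeq2 with pairs summed. The causes were not tested.

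With libraries left out the counts ran from 44 to 432 for nanoceria against control, 1 to 24 for vehicle against control, 0 to 13 for nanoceria against vehicle, 3 to 18 for nanoceria plus light against light damage, and 4 to 91 for the interaction. The 44 calls for nanoceria against control came without replicate 1 of every group. Of 136 genes followed through the settings, 92 lost their call in that fit and 59 with the replicate block. Control and nanoceria libraries of number 1, 2 and 5 correlated at 0.115, 0.0101 and 0.0373 in their deviations from the group means. No control library of these numbers was closest to the nanoceria library of its own number. Nanoceria 2, however, was about as close to vehicle 2 as to nanoceria 5, with an SD of the log2 difference of 0.264 and 0.266. Whether the replicate numbers mark batches over all groups was not tested, so the lower count with the replicate block stays unexplained.

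Among the 136 genes followed through these settings, the direction turned only for Gnat1 and Opn1sw, neither of which was called. Not all genes given in the text were among the 136. Gnat1 was -0.21 with the replicate block, -0.02 without replicate 2, -0.17 without replicate 5, -0.08 without replicate 6, -0.05 without control 2, -0.07 without control 6 and -0.17 without nanoceria 5. Opn1sw was 0.013 with limma-voom, 0.10 with the sex term, 0.017 with limma-voom and pairs summed, 0.13 without replicate 1 and 0.06 without control 1. With libraries left out Gnat1 ran from -0.17 to 0.32 and Opn1sw from -0.32 to 0.13.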

Other observations

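The genes below belong to none of the lists and were chosen after their values were seen. Penk, which encodes the opioid precursor proenkephalin of amacrine cells, measured 87.4, 100, 84.3, 77.1 and 50.9 CPM in control and 50.1, 49.3, 44.6 and 41.7 CPM after nanoceria. It fell by 0.79 ± 0.16 on the log2 scale (edgeR adjusted p = 0.00776), without overlap and in every fit with a control or nanoceria library left out. Vehicle libraries measured 53.9, 76.1, 57.7, 51.1 and 51.1 CPM, all above the nanoceria libraries. They also lay below every control library apart from the lowest, at 50.9 CPM. Ikzf1, the lymphoid and myeloid transcription factor Ikaros, measured 1.22, 1.62, 1.78, 1.85 and 1.93 CPM in control and 4.27, 3.68, 4.57 and 3.17 CPM after nanoceria, and rose by 1.22 ± 0.23 (edgeR adjusted p = 0.00455).

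Vascular genes also stood among the calls. Egfl7, a protein secreted by endothelium, measured 9.73 to 11.1 CPM in control and 13.1, 17.8, 15.5 and 17.5 CPM after nanoceria (log2 fold change 0.64 ± 0.14, edgeR adjusted p = 0.0127), and lost its call without nanoceria 2 (adjusted p = 0.0548). Mmrn2, an endothelial matrix protein, measured 12.3 to 18 CPM in control and 23.1, 26.1, 25.5 and 23.1 CPM after nanoceria (0.72 ± 0.18, edgeR adjusted p = 0.027). It lost its call without control 1, control 2, nanoceria 1, nanoceria 2 or nanoceria 3, at an adjusted p of at most 0.089. The 2 tested endothelial markers summed to 39.61 to 64.1 CPM in control and 55.94 to 67.31 CPM in nanoceria libraries, overlapping, and were not called.

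Sensors and signalling genes of myeloid cells included Tlr7, a receptor for single-stranded RNA, with 1.95 to 3.59 CPM in control and 4.77 to 7.33 CPM after nanoceria (1.21 ± 0.28, edgeR adjusted p = 0.0158). Its call was lost without nanoceria 1 (adjusted p = 0.0533) or nanoceria 2 (adjusted p = 0.0545). Fasn, fatty acid synthase, which like the sterol genes is a target of SREBP, was -0.50 ± 0.13 (edgeR adjusted p = 0.0363), and its call was lost without any single library other than control 1, at an adjusted p of at most 0.152.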
